A study of Mus musculus with 6 samples.

Results

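The genes described here are transcription factors and related proteins of the dorsal neural tube, namely Pax3, Pax7, Zic1, Zic2, Zic4, Zic5, Mab21l1, Mab21l2 and the roof plate ligand Gdf7. They were measured in the midbrain floor plate and in the ventral lateral tissue beside it, and they serve as a gauge of how far dorsal the lateral pieces reach. The genes were chosen by name, with earlier results of these data known. Every array probe set whose platform annotation gives exactly 1 of these symbols was taken. This gave 16 of the 45101 probe sets, covering 8 of the 9 genes. No probe set of Gdf7 was named singly in the annotation used, so Gdf7 was not analysed here. The floor plate group held 3 samples and the ventral lateral group held 3 samples, all from C57BL/6 embryos of mixed sex at embryonic day 10.5, with tissue of 6 embryos pooled in each sample. Neither group carried a transgene or a treatment named in the labels, and nothing in them says whether a floor plate pool and a lateral pool came from the same embryos. The regions were compared without pairing, so p-values weigh their difference against the spread among pools within a region. The spread between embryos within a pool cannot be seen.

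The early neural tube is patterned along its dorsoventral axis by Sonic hedgehog from the floor plate and by BMP and Wnt signals from the roof plate. In the midbrain, the ventral (basal) plate forms dopaminergic, red nucleus and other ventral neurons, while the dorsal (alar) plate forms the tectum. Pax3 and Pax7 are paired-box factors of alar progenitors that Sonic hedgehog represses. Zic proteins are zinc finger factors related to the Gli proteins and are found in dorsal neural tissue, neural crest and the mesenchyme that forms the meninges. Mab21l1 and Mab21l2 are homologues of a Caenorhabditis elegans cell fate gene, and Mab21l2 is known from the developing midbrain roof and eye. Gdf7 is a BMP-family ligand made by the roof plate.

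Promoter sequences in RefSeq (build GRCm38.p6) were matched for 6 of the 9 genes. The 250 bases before the start are printed for 4 of them, 5′ to 3′ on the gene's own strand, with CpG dinucleotides in capitals. Mab21l2 and Pax7 are shown because they were lower in floor plate on every one of their probe sets, and Zic1 and Zic4 because they are direct neighbours on chromosome 9, on opposite strands, with unlike values on the arrays.
Mab21l2, chr3:86548284-86548533, minus strand: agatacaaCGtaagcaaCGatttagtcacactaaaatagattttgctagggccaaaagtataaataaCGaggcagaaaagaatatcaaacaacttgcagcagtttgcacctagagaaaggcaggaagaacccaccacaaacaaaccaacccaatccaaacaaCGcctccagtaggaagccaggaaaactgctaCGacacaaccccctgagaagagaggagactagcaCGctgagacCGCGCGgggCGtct
Pax7, chr4:139832969-139833218, minus strand: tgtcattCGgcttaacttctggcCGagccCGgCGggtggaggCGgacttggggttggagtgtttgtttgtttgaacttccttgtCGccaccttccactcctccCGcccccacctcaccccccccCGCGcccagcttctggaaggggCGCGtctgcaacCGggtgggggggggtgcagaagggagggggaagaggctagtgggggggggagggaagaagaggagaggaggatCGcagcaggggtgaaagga
Zic1, chr9:91365769-91366018, minus strand: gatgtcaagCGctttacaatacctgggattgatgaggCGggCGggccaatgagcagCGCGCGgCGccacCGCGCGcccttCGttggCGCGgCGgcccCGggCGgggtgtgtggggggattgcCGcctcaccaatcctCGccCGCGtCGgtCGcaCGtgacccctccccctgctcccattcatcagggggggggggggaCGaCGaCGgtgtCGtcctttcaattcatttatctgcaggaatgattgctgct
Zic4, chr9:91368722-91368971, plus strand: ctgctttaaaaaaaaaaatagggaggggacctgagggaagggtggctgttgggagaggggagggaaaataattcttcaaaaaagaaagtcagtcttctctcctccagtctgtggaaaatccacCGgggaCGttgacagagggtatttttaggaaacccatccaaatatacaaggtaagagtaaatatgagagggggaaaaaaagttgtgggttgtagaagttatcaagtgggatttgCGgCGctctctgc
The Zic1 window held 27 CpG dinucleotides at a GC content of 66.0%, against 4 and 44.4% in the Zic4 window. Pax7 had 13 at 65.2% and Mab21l2 had 10 at 46.8%, while the median over 27025 promoters was 6 at 52.0%. The letters GGATTA (an Otx-type site), TAATTA (a homeodomain site) and TGGGTGGTC (a Gli-type site) were searched on either strand, and none occurred in the 6 windows matched. They occur in 6.38%, 4.9% and 0.21% of all promoter windows of this length. No match says only that these letters are not in these windows.

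In the deposited values every probe set was centred, with a median of 0 over the 6 arrays. The scale was taken as log2, and a higher value as more RNA, since the sources state neither. The values show how samples differ and not how strongly a gene is expressed, so a gene near 0 on every array may be evenly expressed or not detected. Where all floor plate values lie below all lateral values, the highest floor plate value and the lowest lateral value are equal in size and opposite in sign by construction. The floor plate marker genes were higher on the arrays labelled floor plate, with Foxa2 at 0.66 ± 0.07 in the floor plate pools and -1.10 ± 0.64 in the lateral ones (SD, n = 3 each). Differences are floor plate minus ventral lateral, fitted with limma over 45037 probe sets with Benjamini-Hochberg adjustment and a threshold of 0.05.

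Pax3, Pax7, Mab21l2 and Mab21l1 were lower in floor plate on all of their probe sets, with the Mab21l1 calls close to the threshold, and of the Zic genes described here only Zic1 passed, on 1 of its probe sets. In total 9 of 16 probe sets were lower and 0 higher (limma, adjusted p under 0.05), against 2.01% of all probe sets lower and 2.70% higher. All 16 differences were negative, as were 50.8% of those over all probe sets. At an unadjusted p under 0.05, 12 of the 16 were lower, against 8.12% of all probe sets. The 9 were 5 of 5 Pax, 3 of 3 Mab21 and 1 of 8 Zic probe sets, and the median difference was -0.99 beside -0.0040 over all probe sets. All floor plate values lay below all lateral values for 12 of the 16, against 11.0% of all probe sets. Probe sets of a gene measure the same RNA and are not independent. In pooled tissue, fewer cells of a type and less RNA per cell cannot be told apart.

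**Figure D1:**
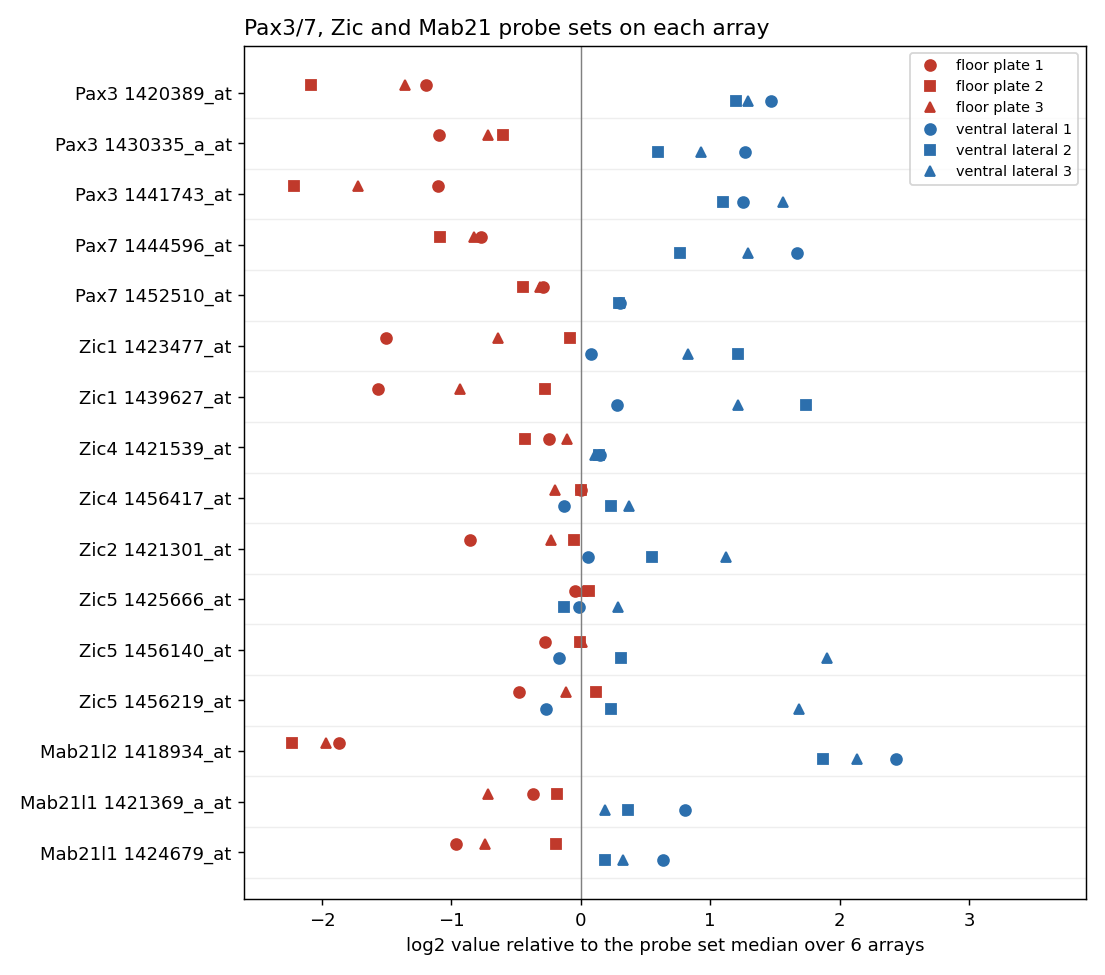
Log2 value relative to the probe set's median (x axis) for each of the 16 probe sets (rows), with floor plate arrays in red above ventral lateral arrays in blue and 1 symbol per replicate. The Pax3, Pax7 and Mab21l2 values fall into separate groups, whereas the Zic5 values of the regions overlap, with ventral lateral replicate 3 the highest pool.

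Pax3, a paired-box factor of alar progenitors, neural crest and muscle precursors, was measured by 3 probe sets. On 1420389_at its log2 values were -1.20, -2.09 and -1.36 in floor plate replicates 1, 2 and 3, against 1.47, 1.20 and 1.30 in the ventral lateral replicates. The 3 lateral pools lay close together and the floor plate pools spread further, with replicate 2 the lowest. The log2 difference was -2.87 (SE 0.22, 95% interval -3.39 to -2.35, limma adjusted p = 0.000582), which is 7.30-fold lower in floor plate and the 50th lowest of all probe sets. On 1441743_at the log2 values were -1.10, -2.22 and -1.72 in floor plate and 1.26, 1.10 and 1.56 in ventral lateral pools. This difference was -2.99 (SE 0.27, limma adjusted p = 0.00107), with floor plate replicate 2 again lowest. The third, 1430335_a_at, gave -1.10, -0.60 and -0.72 in floor plate and 1.27, 0.60 and 0.93 in ventral lateral pools. Its difference was smaller, at -1.73 (SE 0.20, limma adjusted p = 0.00294), and here floor plate replicate 2 was the highest of its group. The 3 probe sets thus shared the direction and the separation of the regions but not the order of the floor plate pools.

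Pax7, the closest relative of Pax3 and a marker of the tectal primordium, had 2 probe sets that differed in size of effect. On 1444596_at the log2 values were -0.77, -1.09 and -0.83 in floor plate and 1.67, 0.77 and 1.29 in ventral lateral pools. The difference was -2.14 (SE 0.22, 95% interval -2.65 to -1.63, limma adjusted p = 0.00195), or 4.40-fold lower. Lateral replicate 2 was the lowest of its group. On 1452510_at the values were -0.29, -0.45 and -0.31 in floor plate against 0.30, 0.29 and 0.30 in ventral lateral pools. The lateral values were nearly equal, with an SD of 0.0047, and the difference was -0.65 (SE 0.09, limma adjusted p = 0.00724). All 5 Pax probe sets passed in each of the 13 alternatives run, including each fit without 1 sample.

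Mab21l2 had the largest difference among the 16 probe sets. Its log2 values on 1418934_at were -1.87, -2.23 and -1.97 in floor plate and 2.43, 1.87 and 2.13 in ventral lateral pools. The groups lay far apart relative to their spread, with means of -2.02 ± 0.19 among floor plate pools and 2.14 ± 0.28 among lateral pools (SD, n = 3 each). The log2 difference was -4.17 (SE 0.17, 95% interval -4.55 to -3.78, limma adjusted p = 6.04e-05). This is 18.0-fold lower in floor plate and the 14th lowest difference of all probe sets.

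Mab21l1 is the paralogue of Mab21l2. On 1424679_at the values were -0.96, -0.19 and -0.74 in floor plate and 0.64, 0.19 and 0.32 in ventral lateral pools. The difference was -1.01 (SE 0.21, limma adjusted p = 0.0377). On 1421369_a_at they were -0.37, -0.19 and -0.72 in floor plate and 0.80, 0.36 and 0.19 in ventral lateral pools, with a difference of -0.88 (SE 0.19, limma adjusted p = 0.0483). Floor plate replicate 2 was the highest of its group on either probe set, and lateral replicate 1 the highest of its group. The groups did not overlap, but the calls were fragile. The first passed in 6 of 13 alternatives and was lost without any single sample other than floor plate replicate 2 (adjusted p of 0.0597 to 0.132), as well as with array weights (0.0554) and with the replicate number as a block (0.0785). The second passed in 4 of 13 and was lost in every fit without a sample (0.0558 to 0.129), under array weights (0.0558) or robust eBayes (0.0525), and in the fit with the mesenchyme covariate described with Zic1 (0.0789). The difference was negative in each of these fits.

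**Figure D2:**
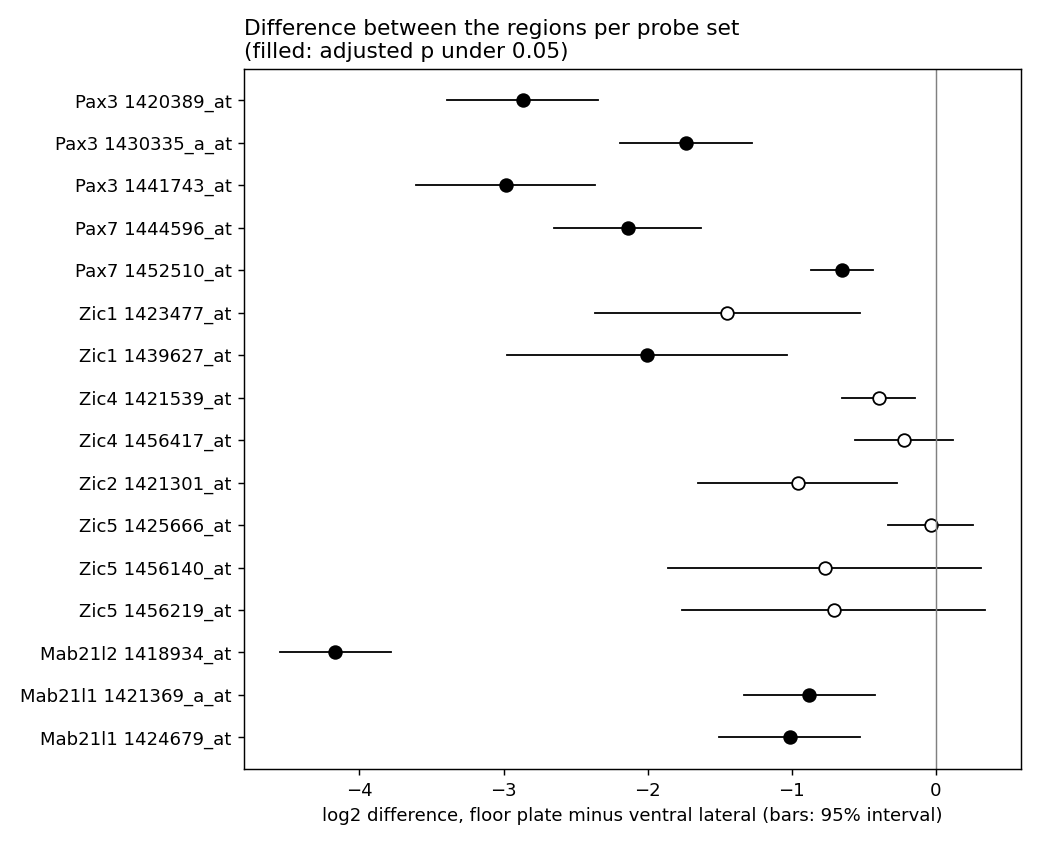
Log2 difference, floor plate minus ventral lateral, for each probe set (points) with its 95% interval (bars), filled where the adjusted p was under 0.05. Mab21l2 lies farthest left at -4.17, the Pax3 and Pax7 intervals exclude 0, and the Zic5 intervals include it.

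Zic1, a zinc finger factor of dorsal neural tissue and of the mesenchyme around the brain, was lower in floor plate on 1 of its 2 probe sets. On 1439627_at the log2 values were -1.56, -0.28 and -0.93 in floor plate and 0.28, 1.74 and 1.22 in ventral lateral pools. The spread within each region was wide, with floor plate replicate 1 and ventral lateral replicate 1 the lowest of their groups. The difference was -2.005 (SE 0.42, 95% interval -2.98 to -1.03, limma adjusted p = 0.0387). The call was lost without floor plate replicate 1 (-1.69, adjusted p = 0.124) or 3 (0.11) and without ventral lateral replicate 2 (-1.68, 0.0918) or 3 (0.121). On 1423477_at the values were -1.50, -0.08 and -0.64 in floor plate and 0.08, 1.21 and 0.83 in ventral lateral pools, the same order of pools. That difference was -1.45 (SE 0.39, limma adjusted p = 0.0989) and did not pass, although the groups did not overlap.

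Zic2, which lies close to Zic5 on chromosome 14, had values of -0.86, -0.06 and -0.23 in floor plate and 0.06, 0.55 and 1.12 in ventral lateral pools on its only probe set, 1421301_at. The groups did not overlap, but the nearest pools were close. The difference was -0.96 (SE 0.30, 95% interval -1.65 to -0.27, limma adjusted p = 0.145).

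The size of the Zic5 differences rested mostly on a single pool. On 1456140_at its values were -0.27, -0.0062 and 0.0062 in floor plate and -0.17, 0.31 and 1.90 in ventral lateral pools. On 1456219_at they were -0.48, 0.12 and -0.12 in floor plate and -0.27, 0.23 and 1.69 in ventral lateral pools. Ventral lateral replicate 3 stood far above the other 5 pools on either probe set. Lateral replicate 2 also lay above all floor plate values, by less, while lateral replicate 1 lay among them. The differences were -0.77 (SE 0.47, limma adjusted p = 0.487) and -0.71 (SE 0.45, limma adjusted p = 0.516). Without ventral lateral replicate 3 they were -0.16 and -0.14. The third probe set, 1425666_at, ranged from -0.05 to 0.06 among floor plate pools and from -0.13 to 0.29 among lateral pools. Its difference of -0.04 (95% interval -0.33 to 0.26) turned to 0.09 without ventral lateral replicate 3 (limma adjusted p = 0.801).

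Zic4, the neighbour of Zic1, differed little. On 1421539_at its values were -0.25, -0.43 and -0.11 in floor plate and 0.15, 0.14 and 0.11 in ventral lateral pools. The difference was -0.40 (SE 0.11, 95% interval -0.65 to -0.14, limma adjusted p = 0.102), with groups that did not overlap. On 1456417_at floor plate values of -0.0020, 0.0020 and -0.20 overlapped with lateral values of -0.13, 0.23 and 0.37, for a difference of -0.22 (95% interval -0.56 to 0.12). A p that misses the threshold does not show that Zic2, Zic4 and Zic5 were equal in the regions.

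The lateral pools were ranked differently by the families. Ventral lateral replicate 1 was the highest lateral pool on 7 of 8 Pax and Mab21 probe sets, and replicate 2 was the lowest on 7 of 8. On the Zic probe sets replicate 1 was instead the lowest lateral pool on 6 of 8 and the highest on 1 of 8. In floor plate, replicate 1 was the lowest pool on 6 of 8 Zic probe sets. These counts include several probe sets of the same gene. The share of all probe sets with such orders was not computed, so the orders cannot be called particular to these families. The means of other gene lists also differed among the lateral pools, and some of their orders were those of the genes above. The mean of 8 intermediate and GABAergic genes was 1.74, 1.30 and 1.46 in ventral lateral replicates 1, 2 and 3. Replicate 1 was thus highest and replicate 2 lowest, as on most Pax and Mab21 probe sets. The mean of 7 midbrain and boundary genes was -1.27 in ventral lateral replicate 1, where replicate 2 had -0.06 and replicate 3 had 0.37, the lateral order of Zic2. The mean of 9 floor plate genes was -0.97 in ventral lateral replicate 2, where replicate 1 had -1.86 and replicate 3 had -2.24. The part of any of these in the Pax, Zic and Mab21 values was not tested.

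The mean over 10 genes of head mesenchyme and meninges stood in the order of Zic1 within each region. It was -0.53, 0.57 and -0.10 in floor plate replicates 1, 2 and 3 and -0.41, 0.32 and -0.12 in the ventral lateral replicates, so that the ranges of the regions overlapped. Of the 10 genes, 8 ranked the floor plate pools as Zic1 did, 7 ranked the lateral pools so, and 6 did both. Pdgfra, a receptor of mesenchyme, followed neither order, and the forkhead genes Foxc1 and Foxc2 did not follow that of the lateral pools. The share of all genes in these orders was not computed, so the counts have no background beside them. Zic2 and Zic5 did not share the lateral order of Zic1. Lateral replicate 3 was highest for Zic2 (1.12) and for Zic5 on 1456140_at (1.90) and 1456219_at (1.69). The collagen gene Col1a2, named after its values were seen, had -1.15, 0.77 and -0.25 in floor plate pools and -0.72, 0.79 and 0.25 in lateral pools. In the list 1 of 10 genes differed between the regions, Twist1, a factor of mesenchyme, which was higher in floor plate (2.11, limma adjusted p = 0.00379). Levels of the defining markers cannot be read from centred values. With the list mean as a covariate, an alternative added after these orders were seen, the Zic1 differences were -2.08 (SE 0.17, limma adjusted p = 0.00185) on 1439627_at and -1.52 (SE 0.15, limma adjusted p = 0.00336) on 1423477_at. Zic2 was at -0.99 in that fit (limma adjusted p = 0.101), and the Pax3 and Pax7 probe sets all passed in it with differences of -2.94 to -0.65. Mab21l1 on 1421369_a_at lost its call in it (-0.88, limma adjusted p = 0.0789). A covariate that ranks the pools as Zic1 does takes up spread within the regions, so the smaller SE of Zic1 follows from that choice. The list mean also ranked the replicate numbers alike in either region, so mesenchyme and replicate number cannot be told apart here. With the replicate number as a block instead, Zic1 on 1423477_at was at -1.45 (limma adjusted p = 0.00278).

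**Figure D3:**
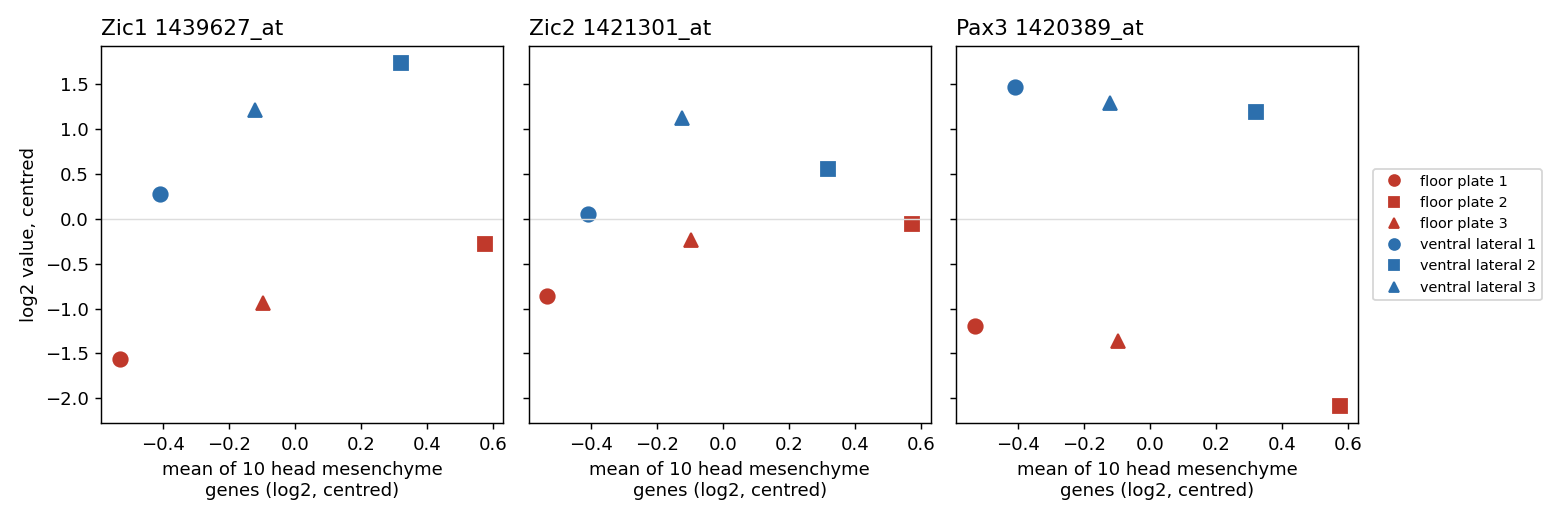
Log2 value of Zic1, Zic2 and Pax3 (1420389_at) on the y axes against the mean of 10 head mesenchyme and meninges genes (x axis) on each array, floor plate in red and ventral lateral in blue, 1 symbol per replicate. Zic1 is higher where the mesenchyme mean is higher within each region, at a lower level in floor plate, while Pax3 on 1420389_at is lowest in floor plate replicate 2, where that mean is 0.57, and on 1430335_a_at, not drawn, that pool was the highest floor plate one.

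Neural crest and muscle, in which Pax3 and Pax7 are also active, were set beside them. Of 8 neural crest genes 2 were lower and 1 higher, with a median difference of -0.22. The higher one, Snai2 (0.85, limma adjusted p = 0.0258), was lost without floor plate replicate 1 or 3 or ventral lateral replicate 1 or 3. The AP-2 factor gene Tfap2a led with -3.95, while the crest regulator Sox10 was at -0.25 (limma adjusted p = 0.438) and Foxd3 at -0.18 (0.531). The list mean spanned -0.41 to -0.19 among floor plate pools and 0.24 to 0.36 among lateral pools. It includes Tfap2a, which had -2.09, -1.84 and -1.75 in floor plate and 2.61, 1.75 and 1.81 in ventral lateral pools. Ednrb, the other lower gene, was at -0.74. For Sox10, Foxd3, Ets1, Erbb3 and Mitf the values of the regions overlapped. Of 7 skeletal muscle precursor genes 0 passed in limma and 1 was higher at an unadjusted p under 0.05, with Myod1 at -0.03 and Myog at 0.21. The higher one was Myf5, at 0.87 (limma adjusted p = 0.156). It had 0.82, 0.38 and 0.09 in floor plate and -0.09, -0.09 and -1.15 in ventral lateral pools. The part of these cells in the Pax3 and Pax7 differences was not tested. Of 8 surface ectoderm genes and 9 of blood and endothelium 0 passed in limma, and 1 and 0 were higher at an unadjusted p under 0.05.

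The other genes of the dorsoventral axis place these values. They were counted with 1 probe set per gene, the most variable, over 18193 genes, of which 3.31% were lower and 4.49% higher in floor plate. Of 15 alar midbrain and dorsal neural genes 7 were lower and 0 higher, or 11 and 1 at an unadjusted p under 0.05 in limma, with a median difference of -0.999. The AP-2 factor gene Tfap2b (-4.86) and the LIM homeobox genes Lhx2 (-4.68) and Lhx9 (-4.47) led them, beside -4.17 for Mab21l2. Of 8 genes of the intermediate and GABAergic domain all 8 were lower, with a median of -3.95 and with Gata2 at -4.41, Gata3 at -4.11 and Tal1 at -4.09. Of 7 basal progenitor genes 2 were lower and 3 higher. Nkx2-2, a target of strong Hedgehog signalling, was at -2.11, Olig2 at -1.86 and Foxa1 at 2.70, while Nkx6-1 did not pass (0.71, limma adjusted p = 0.0634). Of 9 floor plate genes all 9 were higher, Corin (6.36), Lmx1b (3.72) and Slit2 (3.70) most. Shh was at 1.76 (limma adjusted p = 0.0462). In the fit over all probe sets that same probe set, 1436869_at, did not pass (limma adjusted p = 0.0734). The other Shh probe set, 1427571_at, was at 0.16 with groups that overlapped. With the lowest probe set ID of each gene, 7 floor plate genes were higher in place of 9.

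Roof plate genes did not follow the alar genes. Of 11 measured, 5 were higher in floor plate and none lower, with a median of 2.13. Lmx1a (3.71), Msx1 (3.53) and Msx2 (2.43) led, and these genes are also active in ventral midline progenitors of the midbrain. In the fit over all probe sets the other probe set of Msx1 gave 0.44 (limma adjusted p = 0.0673). That of Msx2 gave 0.61 (limma adjusted p = 0.149), so neither passed. Wnt1 had values of 1.09, 0.99 and 0.91 in floor plate and -5.10, -0.91 and -1.20 in ventral lateral pools (3.40, limma adjusted p = 0.0752). Wnt3a, a roof plate ligand, had -0.03, -0.22 and 0.28 in floor plate pools and 0.03, 0.24 and -0.10 in lateral pools. Those ranges overlapped, and the difference was -0.05 (limma adjusted p = 0.912). The dorsal progenitor gene Olig3 (-0.46), the rhombic lip gene Atoh1 (0.41) and Rspo1 (-0.18) did not pass either. With centred values, a roof plate gene near 0 on all arrays cannot be told from one that was not detected.

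**Figure D4:**
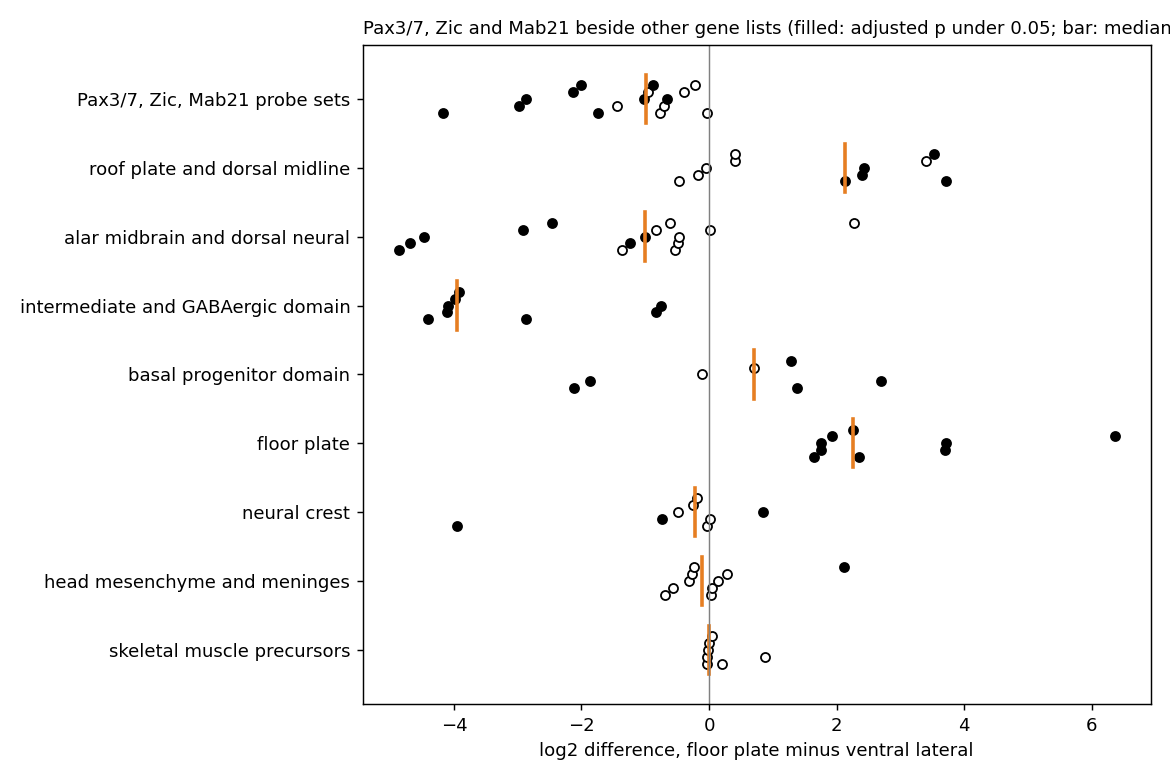
Log2 difference, floor plate minus ventral lateral (x axis), of the 16 probe sets in the top row and of single genes in 8 other lists below, filled where the adjusted p was under 0.05, with the median as an orange bar. The alar and intermediate lists lie to the left with medians of -0.999 and -3.95, and the roof plate and floor plate lists to the right with medians of 2.13 and 2.26.

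The remaining lists were counted in the same way. Gli1 (-2.28), Gli2 (-3.43) and Gli3 (-2.99), zinc finger relatives of the Zic proteins, were the 3 lower genes among 10 relatives, and none was higher. Gdf5, Gdf10 and Gdf11 did not pass, with differences of 0.01, -0.06 and -0.29. Of 14 BMP receptor and response genes 2 were lower and 3 higher (Id2 at -1.36, Bambi at 0.83 and Id1 at -0.82). The count of higher ones was 0 in limma without floor plate replicate 2 and 1 without floor plate replicate 1 or 3 or ventral lateral replicate 1 or 3, and at an unadjusted p under 0.05 it was 6 in all samples. Midbrain and boundary genes had 0 of 7 past the threshold in limma, with 2 higher at an unadjusted p under 0.05. Forebrain genes had 2 of 7 lower (Six3 at -4.79 and Emx2 at -3.14) and neural progenitor genes 2 of 8 lower and 1 higher. Of 9 pan-neuronal genes 3 were lower, the filament genes Ina (-1.05) and Nefl (-0.68) and the microtubule regulator gene Stmn2 (-0.66), or 7 at an unadjusted p under 0.05. That count of 3 was 1 without floor plate replicate 1 or 3 or ventral lateral replicate 1 or 2, and 5 without ventral lateral replicate 3. The part of neurons in the Pax, Zic and Mab21 differences was not tested. The neuronal gene Tubb3 (-0.44) and the progenitor gene Sox2 (0.30) did not pass.

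For each gene, on its most variable probe set, the genes with the most similar values were found by the root mean square difference over the 6 arrays. Nearest to Mab21l2 were Crabp1 (0.259), Tfap2a (0.260) and Lhx2 (0.299). Nearest to Pax3 were Tal2 (0.316), Gli3 (0.364) and Tfap2d (0.395), and nearest to Pax7 were Acss1 (0.134), Slc30a3 (0.159) and Nr5a2 (0.180). Zic1 had no gene closer than Mgarp (0.423), and Zic5 was nearest to Pax5 (0.330), a boundary gene that was at 1.21 in ventral lateral replicate 3. Zic2 was nearest to Gpr153 (0.134) and Mab21l1 to Sall3 (0.0702). Zic4 was not distinct by this measure, since 2188 genes lay within 0.2 of it.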

How the data were processed

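Total RNA (5 ng per sample) was amplified with a NuGEN Ovation kit and biotin-labelled for Affymetrix arrays, per the labels' protocols. The deposited log2 values were made by the authors with RMA, per the submitters' processing notes, with no version given in the sources used here. Neither log base nor direction is stated, so base 2 and higher values for more RNA were assumed. For 100% of the 45101 probe sets the 6 arrays had a median within 1e-05 of 0. RMA shrinks dim probe sets, which can understate differences, and signal over background cannot be read. The number of arrays limits the precision (median SE of a difference 0.127 on the log2 scale).

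After removing 64 control probe sets, floor plate minus ventral lateral was fitted in limma 3.58.1 (R 4.3.3; lmFit, then eBayes), with two-sided tests and Benjamini-Hochberg adjustment over 45037 probe sets. Probe sets were kept apart, because choosing the most variable one per gene favours differences. The 16 gene lists and the search for the nearest genes used 1 probe set per gene. Symbols came from GEO's platform annotation, with 34945 probe sets named singly, 932 with several symbols and 9160 with none. The genes and lists were chosen with earlier results of these data known. Genes named were all probe sets of the 9 genes, from each list at most 3 members that passed, a fixed set of markers and the 3 genes nearest to each by root mean square difference. Exact permutation of 3 against 3 samples cannot go below p = 0.1 and was not used. The alternatives were other normalizations, variance models, thresholds, probe set choices, the replicate number as a block and leaving out each sample. The fit with the head mesenchyme mean as a covariate was not planned. It was added after values were seen and is counted among the 13 alternatives per probe set. The fit was tested on simulated data. Plots were made with matplotlib 3.10.9 and pandas 2.3.3 under Python 3.11.15.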

Additional observations from a re-analysis of the deposited data

How the results depend on the processing

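With 3 pooled samples per region and centred values, differences of small size and any level over background lie beyond these data. The count of lower Pax, Zic and Mab21 probe sets stayed within 1.5 times of 9 in all alternatives run, at 9 after quantile normalization, 8 with robust eBayes, 7 with array weights, 6 at an adjusted p under 0.01 and 6 to 8 without any 1 sample, and the count of higher ones stayed at 0. Of 208 single values, 184 kept their direction and side of the threshold, 20 lost the call, 3 gained it and 1 reversed, namely Zic5 on 1425666_at at 0.085 without ventral lateral replicate 3 (as reported -0.04, with neither past the threshold, and -0.12 to 0.085 over the fits without 1 sample). The lost calls were those of Mab21l1 and of Zic1 on 1439627_at. Beyond the gene lists whose counts are given with their results, taking the lowest probe set ID of each gene gave 3 higher roof plate genes in place of 5, and 1 in place of 2 lower genes of neural crest and of neural progenitors.

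Over all probe sets, 903 were lower and 1218 higher. At an adjusted p under 0.01 these were 373 and 584, as a stricter threshold must lower them. Fits on 5 of the 6 samples gave 510 to 743 lower and 753 to 991 higher. The counts moved by over 1.5 times without floor plate replicate 1 (510 and 753), floor plate replicate 3 (537 lower), ventral lateral replicate 1 (562 and 800) and ventral lateral replicate 3 (594 and 781).

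The replicate numbers did not meet the limit set for pairing: the correlation of the deviations of same-numbered pools was 0.01, 0.125 and 0.114 for numbers 1, 2 and 3, with 0.1 required of each, and floor plate replicate 1 correlated best with ventral lateral replicate 3. With the replicate number as a block, 10 of the 16 probe sets were lower, against 9 without it, and 842 and 1062 of all probe sets were lower and higher. In that fit Zic1 on 1423477_at (-1.45, adjusted p = 0.00278) and Zic2 (-0.96, 0.0322) passed and Mab21l1 on 1424679_at (-1.01, 0.0785) did not.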
